A study of Mus musculus with 7 samples.

Results

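The genes described here encode the voltage-gated calcium channels, the proteins that travel with them, and the channels that release calcium from the endoplasmic reticulum. They are the 32 rows, of 32285 genes in the table, whose symbol starts with Cacna, Cacnb or Cacng, together with Ryr1, Ryr2, Ryr3, Itpr1, Itpr2 and Itpr3. The rule that lists them uses gene names only. It was followed through 1 single-cell library, made at postnatal day 3.5 from trigeminal ganglia of wild-type mice. The series also holds bulk libraries of molars at postnatal day 7.5, 3 labelled control and 3 labelled Fgfr2 mutant, which were not analysed here. The labels name no strain, sex, treatment or number of pooled animals for the ganglion library.

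A voltage-gated calcium channel has a pore-forming alpha1 subunit, which opens when the membrane depolarises, and auxiliary beta and alpha2delta subunits that bring the pore to the membrane and tune its gating. The alpha1 genes fall into L-type (Cacna1s, Cacna1c, Cacna1d, Cacna1f), P/Q-, N- and R-type (Cacna1a, Cacna1b, Cacna1e) and low-threshold T-type pores (Cacna1g, Cacna1h, Cacna1i). In sensory neurons N- and P/Q-type channels drive transmitter release, T-type channels lower the firing threshold, and alpha2delta1, the product of Cacna2d1, is the binding site of the gabapentinoid drugs. The Cacng genes encode the gamma1 subunit of skeletal muscle channels and its relatives, several of which act as auxiliary subunits of AMPA receptors. Ryanodine receptors (Ryr) and inositol trisphosphate receptors (Itpr) let calcium out of the endoplasmic reticulum, the former in answer to calcium or to coupling with L-type channels, the latter in answer to G protein- and growth factor-driven phospholipase C.

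Of 13065 barcodes, 9427 had at least 1000 UMIs (unique molecular identifiers, 1 per captured transcript), at least 500 genes and at most 20% mitochondrial UMIs. Their median was 10861 UMIs and 3651 genes. Clusters were named by marker genes, and a cell entered a class only if it also carried at least 2 of the class's own markers, which gave 8114 cells in 13 classes. All names mean likeness to a cell type by these markers, so that "neuron" stands for neuron-like, and the suffix is dropped from here on. There were 470 neurons, 397 satellite glia, 1983 non-myelinating or immature Schwann cells and 1360 myelinating Schwann cells, besides 1609 fibroblasts or perineurial cells, 287 cartilage or bone cells, 92 mural, 277 endothelial, 381 macrophage, 180 neutrophil or monocyte and 712 erythroid cells. Central nervous system types were also present, 270 of the oligodendrocyte lineage, with 612 CPM of Mog, and 96 astrocytes, with 2846 CPM of Gfap. Neurons had a median of 83433.5 UMIs, against 5584 to 21730 in the other classes.

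Some names rest on weaker ground. Every marker of the non-myelinating or immature Schwann list was higher in some other class, and the cartilage or bone class carried Ibsp at 10824 CPM but Matn1 at 0.161 CPM. Within the fibroblast or perineurial class the perineurial marker Itgb4 reached only 7.13 CPM. On the same list, Slc2a1 was at 23.6 CPM, below 259 CPM in endothelial cells. Cldn1 went the other way, at 29.4 CPM, with at most 7.96 CPM in any other class. In satellite glia the markers Fabp7, Cdh19 and Ednrb were each lower than in some other class. Cspg4 was at 37.4 CPM in the oligodendrocyte lineage, below 192 CPM in mural cells. Gjb6 was at 2.08 CPM in astrocytes, below 87.6 CPM in fibroblasts or perineurial cells. All other markers of these central lists were highest in their own class. Of the 470 neurons, 345 fell into 7 subtypes, and 125, with a median of 5448 UMIs, had none. The subtypes were 105 Mrgprd non-peptidergic nociceptors, 59 peptidergic nociceptors, 60 large myelinated A-fibre neurons, 43 C-low-threshold mechanoreceptors, 33 Trpm8 cold-sensing neurons, 27 Mrgpra3 pruriceptors and 18 Nppb or Sst pruriceptors. The 32 genes were left out when the clusters were formed.

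With 1 library there is no replicate and no test. Levels are CPM, a gene's UMIs as parts per 1000000 of all UMIs summed over a class, followed in brackets by the exact Poisson 95% interval. Ratios of CPM carry an exact conditional binomial 95% interval. Both cover counting error only and say nothing about differences between animals. A gene was called higher if the ratio was at least 2 and its interval above 1, and lower if the ratio was at most 0.5 and its interval below 1, provided that 20 or more UMIs were counted over both sides. Levels are compared between cells for 1 gene, not between genes, because gene length and position of the counted reads affect a gene's count. Each CPM is a share of a class's UMIs, so fewer transcripts of a gene per cell and more transcripts of other genes cannot be told apart.

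**Figure D1:**
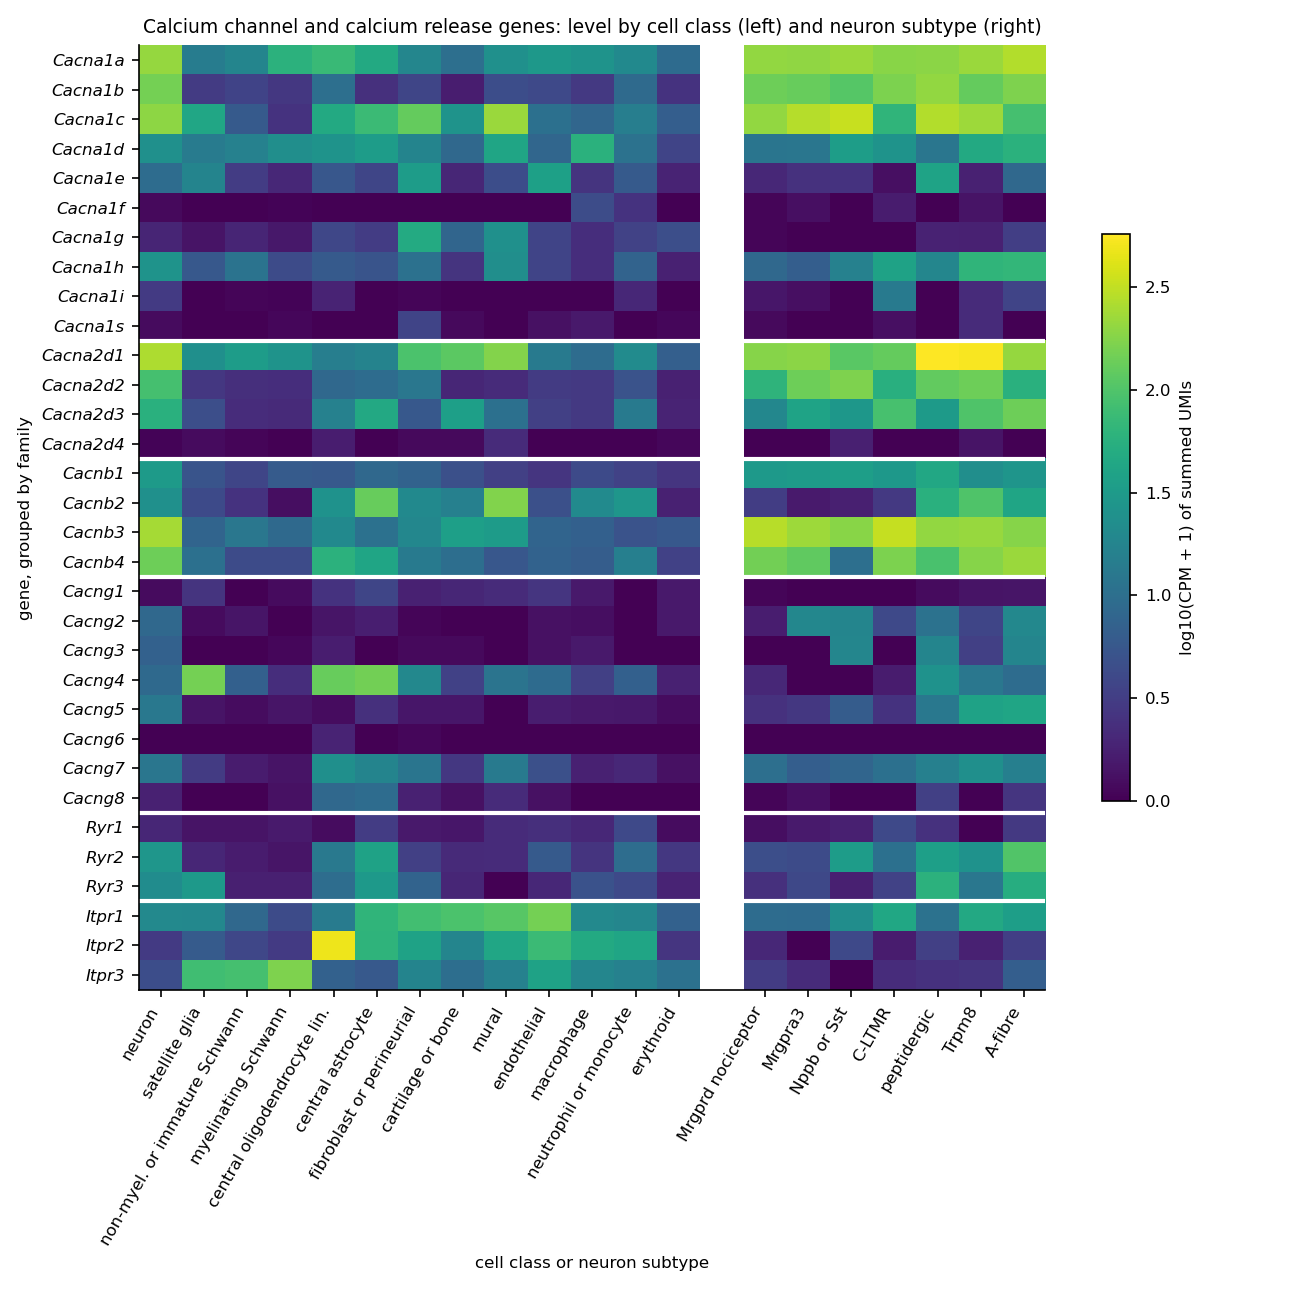
Level of each of the 32 genes, as log10(CPM + 1) of summed UMIs (colour), in 13 cell classes (left block) and 7 neuron subtypes (right block), with genes grouped by family. Rows such as Cacna1b and Cacnb3 are bright in neurons and in every subtype, while Itpr2 is brightest in the central oligodendrocyte lineage at 483 CPM and Itpr3 in myelinating Schwann cells at 165 CPM.

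Most of the channel subunits were found at higher levels in neurons than in the rest of the ganglion, and the IP3 receptors at lower levels. Over all named cells, 30 of the 32 genes reached 20 UMIs; Cacna2d4 and Cacng6 did not. Against all other named cells together, 17 of the 30 were higher in neurons, where 20.9% of all genes with 20 UMIs were, and 7 were lower, where 34.2% of all genes were. The median log2 ratio, with 1 CPM added to both sides, was 1.62 over the 30 members and -0.20 over all genes. By family, 5 of 10 alpha1 genes, all 3 alpha2delta genes with enough UMIs, 3 of 4 beta genes, 4 of 7 Cacng genes and 2 of 3 ryanodine receptors were higher, and all 3 IP3 receptors were lower. These calls use shares of UMIs. Per cell, neurons held 5.79 times the UMIs of other named cells, which raises the ratio of every gene by that factor when UMIs per cell replace CPM. On that scale 24 of the 30 genes were higher and 3 lower. The share of all genes called per cell was not computed, so these counts cannot be read as particular to the members. The share of higher genes among those called was 70.8% by CPM and 88.9% by UMIs per cell, and Itpr1, Cacng4, Cacng1 and Cacna1s changed side.

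Among the pore genes, Cacna1b, the N-type pore, showed the widest gap. It stood at 150.4 CPM (146 to 154.5) in neurons and at 2.65 CPM (2.34 to 3.00) in the other cells, a ratio of 56.7 (50 to 64.6). Cacna1a, the P/Q-type pore, stood at 207 CPM (202 to 212) against 26.2 CPM (25.2 to 27.2), a ratio of 7.9 (7.54 to 8.27). Cacna1c, an L-type pore also used by smooth muscle and connective tissue, was 4.49 (4.32 to 4.67) times as high in neurons, at 193 CPM against 43.1. Both remaining genes called higher were T-type pores, Cacna1h with a ratio of 3.98 (3.58 to 4.42) and Cacna1i, which had only 67 UMIs in neurons, with 17.1 (8.98 to 35.9). Cacna1g, the other T-type pore, went the opposite way, with 0.909 CPM (0.618 to 1.29) in neurons and 13.6 CPM elsewhere, 15 (10.5 to 22.1) times lower. Cacna1s, the pore of skeletal muscle, was also lower, at 0.205 CPM from 7 UMIs. Cacna1d, Cacna1e and Cacna1f met neither threshold, with ratios of 1.36, 0.747 and 0.992.

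The auxiliary beta and alpha2delta subunits were mostly higher as well. Cacnb3 was 18.4 (17.3 to 19.5) times as high in neurons, at 240.5 CPM, and Cacnb4 14.2 (13.2 to 15.2) times, at 139 CPM. Cacnb1 had a ratio of 7.16 (6.38 to 8.05), and Cacnb2 of 1.85 (1.69 to 2.02), under the threshold. Among the alpha2delta genes the ratio was 20.5 (18.5 to 22.8) for Cacna2d2, 9.03 (8.22 to 9.93) for Cacna2d3 and 5.49 (5.3 to 5.69) for Cacna2d1. Cacng2, Cacng3 and Cacng5, all of them AMPA receptor auxiliary subunits or their close relatives, had few UMIs in the other named cells, with ratios of 32.4 (21 to 52.7), 45.8 (26.2 to 87.5) and 29.7 (21.2 to 42.5). Cacng4 was 2.98 (2.62 to 3.4) times lower in neurons, and Cacng1, the muscle gamma subunit, had 7 UMIs in neurons and 60 elsewhere.

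**Figure D2:**
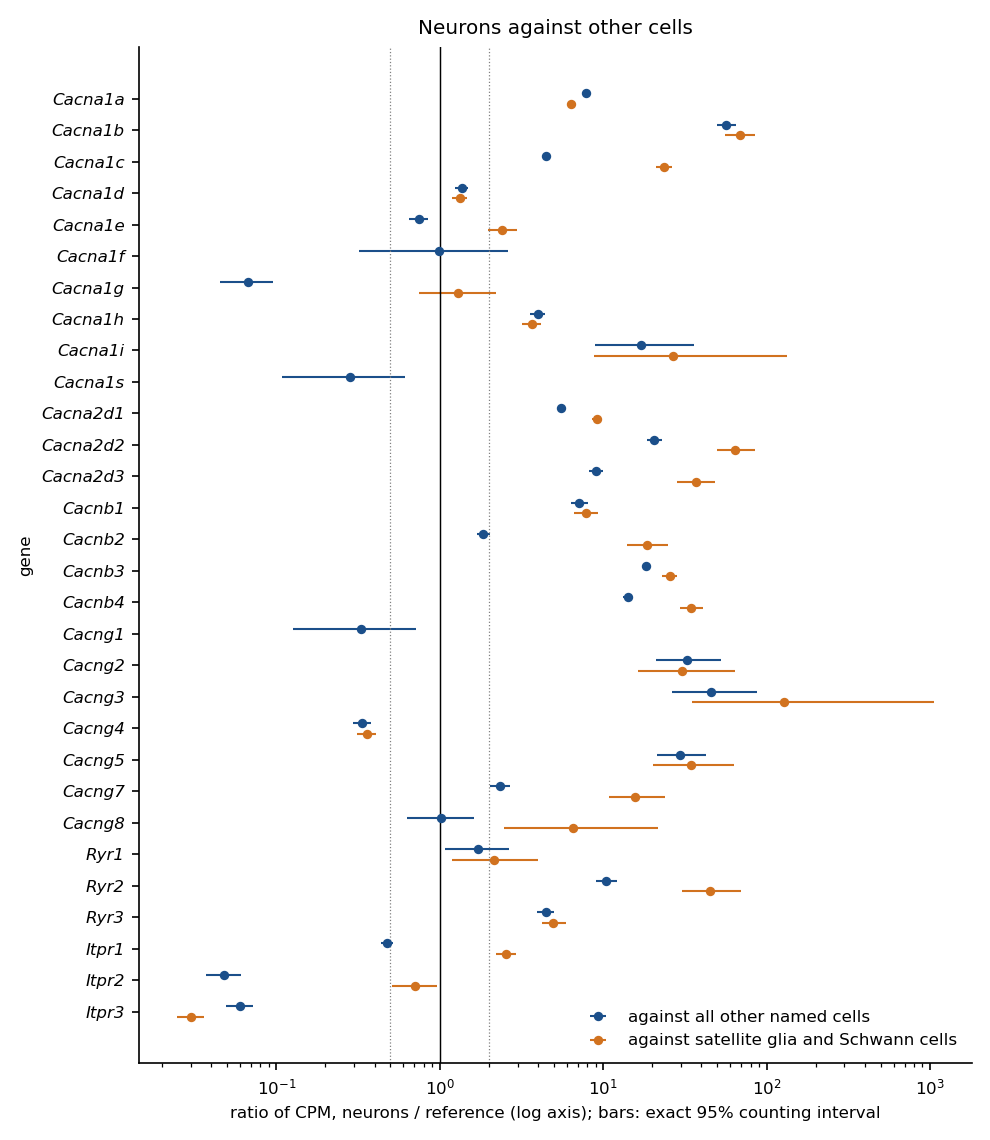
Ratio of CPM in neurons to CPM in all other named cells (blue) and in satellite glia and Schwann cells together (orange), on a log axis with exact 95% counting intervals, for the genes with 20 or more UMIs in the comparison. Dotted lines mark 0.5 and 2. Cacna1b lies farthest right of the pore genes in both comparisons, and the blue points of Itpr1, Itpr2 and Itpr3 lie left of 0.5 while the orange point of Itpr1 lies right of 2.

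Against the 3740 satellite glia and Schwann cells alone, 22 of 27 genes with enough UMIs were higher in neurons (27.6% of all genes were) and 2 were lower (27.1% of all genes were). The direction of 3 genes called lower against all other cells turned with this reference. The ratio of Itpr1 was 2.56 (2.23 to 2.95) against glia, where it was 0.479 against all other cells. That of Cacna1g was 1.29 (0.751 to 2.21), which includes 1, and that of Cacna1s 4.22 from 7 and 2 UMIs, too few for a call. Cacng4 and Itpr3 were lower than in the pooled glia, 2.8 (2.44 to 3.23) and 33.4 (27.8 to 40.4) times. For Cacng4 this reflects satellite glia, at 149 CPM from 751 of the 894 glial UMIs, since the Schwann classes, at 6.04 and 1.27 CPM, were below the 7.77 CPM of neurons.

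Droplets also hold some RNA that no cell in them made. As a measure of it, the 13 neuron markers, in blood and vessel classes that should lack them, stood at a median of 2.48% of their neuronal level, between 1.68% and 4.26%. The pooled non-neuronal level of 4 members, Cacna1b, Cacng2, Cacng3 and Cacng5, lay within that range, at 1.76%, 3.08%, 2.18% and 3.37% of neuronal levels. Whether this level is free RNA was not tested. Within that pool, however, Cacna1b stood at 9.23 CPM in the central oligodendrocyte lineage, 6.14% of its neuronal level and above the range. The other 3 were also above it in single classes, from few UMIs. Cacng2 stood at 7.42% of its neuronal level in erythroid cells, from 5 UMIs. Cacng3 stood at 0.659 CPM in the oligodendrocyte lineage (neurons 6.22), from 3 UMIs, and Cacng5 at 1.39 CPM in astrocytes (neurons 11.8), from 2 UMIs. In the pooled glia 11 members lay within the range, Cacna2d2, Ryr2, Cacnb3 and Cacnb4 among them. Cacna1c was another, yet within the pool it stood at 41.4 CPM (36 to 47.4) in satellite glia and at 5.11 and 1.53 CPM in the Schwann classes.

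In 6 genes every neuron subtype stood above every other class: Cacna1a, Cacna1b, Cacna2d2, Cacnb1, Cacnb3 and Cacng5. That is 6 of 30 members, where 7.41% of all genes did so. None of the 30 had every subtype below every other class, which 4.24% of all genes did. Cacna1b ran from 107 CPM in Nppb or Sst pruriceptors to 202 CPM in peptidergic nociceptors, with a median of 140.9, and no other class passed 9.23 CPM. Cacna1a ran from 182.5 CPM in C-low-threshold mechanoreceptors to 273 CPM in A-fibre neurons, 1.5-fold apart, above 73 CPM in the oligodendrocyte lineage. Cacnb3 ran from 179.9 CPM in A-fibre neurons to 323.5 CPM in C-low-threshold mechanoreceptors. Cacnb1 stayed between 21.9 and 43.5 CPM. Cacng5 ranged 26.9-fold among the subtypes, and its lowest level, 1.5 CPM (0.855 to 2.43) in Mrgprd nociceptors, was not separated beyond counting error from the 1.39 CPM of astrocytes, which came from 2 UMIs.

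After each cell was thinned at random to 5000 UMIs, which left out 74 shallower neurons, Cacnb3 was detected in 68.2% (63.3% to 72.7%) of 396 neurons and in 2.86% (1.71% to 4.49%) of 629 erythroid cells, with exact Clopper-Pearson intervals. Cacna1a was detected in 63.1% of these neurons, Cacna2d1 in 63.1% and Cacna1b in 53%, and in 3.02%, 2.7% and 0.954% of erythroid cells. Without thinning the 4 shares in neurons were 89.8%, 85.1%, 85.3% and 85.3%, and in erythroid cells 5.48%, 7.44%, 5.34% and 1.83%, at median depths of 83433.5 and 10056 UMIs. A neuron at 5000 UMIs held a median of 5 of the 32 genes, an erythroid cell 0 and a mural cell 3, the most of any other class. At 20000 UMIs the median neuron held 10, among them 3 pore genes, with 4 to 17 members over 339 cells.

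Start-site sequence was available for 24 of the 32 genes, from RefSeq on GRCm38.p6, the build of the files. The 250 bases before the first listed start are shown for 2 genes called higher in neurons, the pore Cacna1b and the release channel Ryr2, and for 2 called lower, the IP3 receptors Itpr2 and Itpr3. Capitals mark the GC box, GGGCGG on either strand. All are written along the gene's own strand and end at the base before the RefSeq start.
Cacna1b, chr2:24763153-24763402, minus strand: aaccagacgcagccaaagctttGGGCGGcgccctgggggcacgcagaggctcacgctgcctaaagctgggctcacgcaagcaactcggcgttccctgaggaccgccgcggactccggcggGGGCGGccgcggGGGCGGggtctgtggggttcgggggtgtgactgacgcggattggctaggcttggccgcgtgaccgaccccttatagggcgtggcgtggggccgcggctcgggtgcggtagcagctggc
Ryr2, chr13:12106946-12107195, minus strand: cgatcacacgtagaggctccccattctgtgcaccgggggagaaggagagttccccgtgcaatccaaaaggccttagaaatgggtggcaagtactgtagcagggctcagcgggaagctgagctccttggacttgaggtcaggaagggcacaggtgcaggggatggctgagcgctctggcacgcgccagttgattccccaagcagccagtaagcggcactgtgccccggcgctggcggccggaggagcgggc
Itpr2, chr6:146502224-146502473, minus strand: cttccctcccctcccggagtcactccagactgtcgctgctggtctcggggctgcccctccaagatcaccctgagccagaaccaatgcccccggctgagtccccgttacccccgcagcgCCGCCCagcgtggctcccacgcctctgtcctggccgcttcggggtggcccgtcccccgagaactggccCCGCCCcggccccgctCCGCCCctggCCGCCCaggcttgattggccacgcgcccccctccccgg
Itpr3, chr17:27057054-27057303, plus strand: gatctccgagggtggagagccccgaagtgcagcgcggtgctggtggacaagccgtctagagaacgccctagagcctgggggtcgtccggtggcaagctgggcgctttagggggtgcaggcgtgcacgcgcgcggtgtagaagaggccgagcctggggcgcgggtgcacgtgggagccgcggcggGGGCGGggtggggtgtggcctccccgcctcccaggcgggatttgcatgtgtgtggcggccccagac
The Cacna1b window holds 3 GC boxes, that of Itpr2 4, that of Itpr3 1 and that of Ryr2 none, so genes on both sides of the contrast held it. Over the 24 genes, 14 windows (58.3%) held a GC box, against 33.0% of 27025 genes' windows of the same length. The motif TATAAA was present in 1 of 24, Cacna1d (13.0% of all genes), CACGTG in 1, Itpr3 (6.04%), TGTGGT in 1, Cacna1c (14.2%), and TGACGTCA and TTCAGCACC in none (1.60% and 0.292%). GC content had a median of 62.2% in members and 52% in all genes. All motifs were searched on both strands, none contains the letters of another, and a match is a description and not a site.

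Positions are from GENCODE vM21 on GRCm38, in which all 32 genes were found. Several members are neighbours on the chromosome, and some neighbours differed while others did not. Cacng1, Cacng4 and Cacng5 lie side by side on the minus strand of chromosome 11, from 107703218 to 107915055. Of these, Cacng4 was high in satellite glia and central glia, and Cacng5 was called higher in neurons. Cacng1, with 67 UMIs over all named cells, was called higher in the same glial classes as Cacng4, from 8 or fewer UMIs in each. Cacng7, Cacng8 and Cacng6 follow each other on the plus strand of chromosome 7, from 3332955 to 3435667. Cacng7 and Cacng8 were both called higher in the central oligodendrocyte lineage, at 22.6 and 7.47 CPM, and in astrocytes, at 16.7 and 8.33 CPM. Cacng6 had 7 UMIs over all named cells. Cacna2d3 and Cacna1d both lie on the minus strand of chromosome 14, and both were highest among neurons in the A-fibre subtype. Among the genes lying across a member on the other strand, Dcp1a over Cacna1d had 15.5 CPM in macrophages, where Cacna1d had 56.4 CPM. In myelinating Schwann cells Dcp1a stood at 24.6 CPM and Cacna1d at 21.9 CPM. Aven over Ryr3 had 9.72 CPM in astrocytes, where Ryr3 had 29.8 CPM, and Itpr3os over Itpr3 had no UMIs in myelinating Schwann cells. No source used here states whether strand was used in counting.

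The subtypes of neurons differed in which channels they carried beside the shared core. Each subtype was compared with all other neurons. Of 27 members with 20 UMIs in neurons, A-fibre neurons were higher in 11 (12.4% of all genes were higher), peptidergic nociceptors in 7 (6.27%), Trpm8 neurons in 7 (6.02%), C-low-threshold mechanoreceptors in 3 (3.79%), Nppb or Sst pruriceptors in 2 (3.58%), Mrgpra3 pruriceptors in 1 (3.37%) and Mrgprd nociceptors in none (2.84%). Lower calls ran the other way, with 17 in Mrgprd nociceptors (19.2% of all genes), 14 in Mrgpra3 pruriceptors (14.4%), 11 in C-low-threshold mechanoreceptors (10.6%), 9 in Nppb or Sst pruriceptors (12.2%), 3 in peptidergic nociceptors (8.36%), 3 in Trpm8 neurons (10.5%) and 1 in A-fibre neurons (8.47%). After thinning to 20000 UMIs a neuron held a median of 12 members in the A-fibre and Trpm8 subtypes, 11 in peptidergic nociceptors, 9 in C-low-threshold mechanoreceptors and Nppb or Sst pruriceptors and 8 in Mrgprd and Mrgpra3 neurons.

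**Figure D3:**
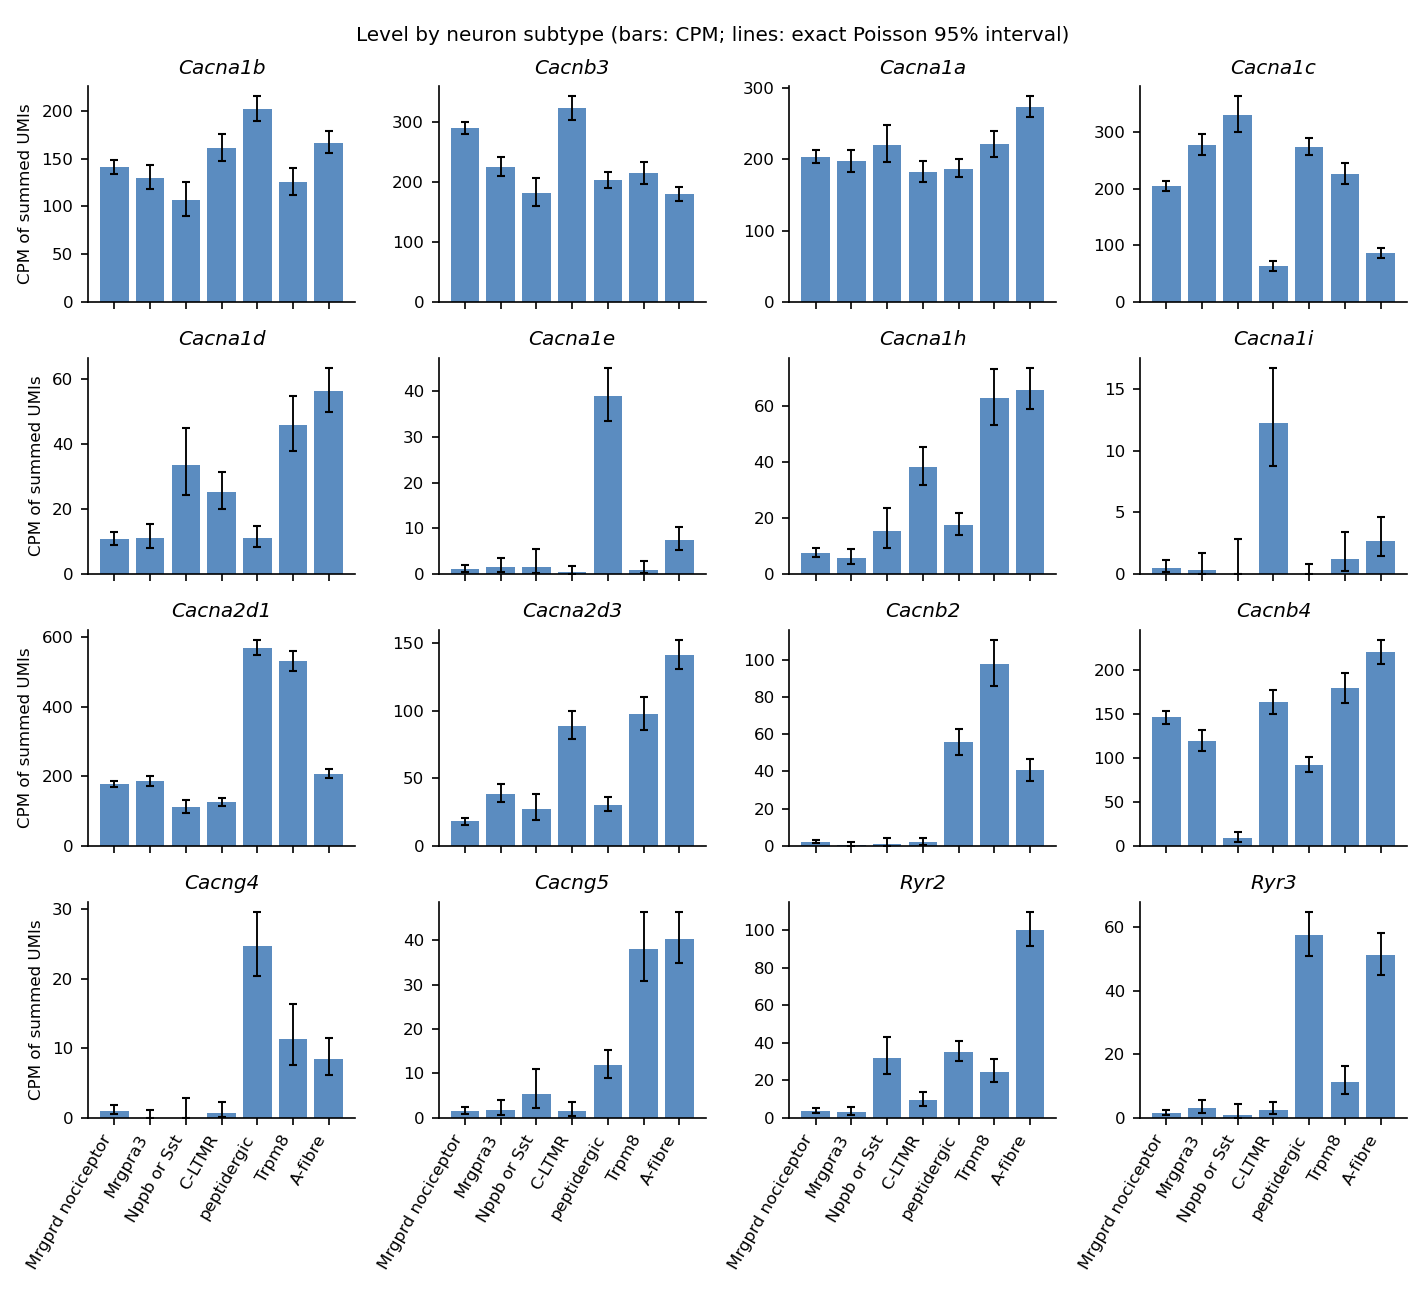
CPM of summed UMIs (bars, with exact Poisson 95% intervals) of 16 genes in the 7 neuron subtypes, each panel on its own scale starting at 0. Cacna1b, Cacnb3 and Cacna1a are present in all subtypes, whereas Cacna1e stands out in peptidergic nociceptors (39 CPM), Cacna1i in C-low-threshold mechanoreceptors (12.3 CPM) and Ryr2 in A-fibre neurons (100.4 CPM).

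Large myelinated A-fibre neurons, which include neurons of touch, had high levels of the ryanodine receptors Ryr2 and Ryr3. Ryr2 stood at 100.4 CPM (91.7 to 109.8) there, at 35.4 in peptidergic, 32.1 in Nppb or Sst, 24.7 in Trpm8, 9.52 in C-low-threshold, 3.64 in Mrgprd and 3.3 CPM in Mrgpra3 neurons. The ratio to all other neurons was 6.52 (5.73 to 7.43), and the UMIs came from 54 of the 60 cells. Ryr3 was high in 2 subtypes, at 57.4 CPM (50.8 to 64.7) in peptidergic nociceptors and 51.3 CPM (45.1 to 58.1) in A-fibre neurons, intervals that overlap, with 11.4 CPM in Trpm8 neurons and 3.00 CPM or less in the other 4. Among pores, A-fibre neurons were higher in Cacna1d at 56.2 CPM (49.7 to 63.4), Cacna1h at 65.8 CPM (58.7 to 73.4) and, from 11 UMIs, Cacna1g at 2.28 CPM. Their level of Cacna1c, 86.3 CPM (78.2 to 95), was by contrast lower, with a ratio of 0.409 (0.37 to 0.452). Cacna2d3, an alpha2delta gene, stood at 141 CPM (131 to 152), a ratio of 3.49 (3.17 to 3.84), and Cacng5 at 40.3 CPM (34.8 to 46.3), a ratio of 5.7 (4.66 to 6.96). Cacnb2, Itpr1, Cacng2 and Cacng3 made up the 11, of which Cacnb2 and Cacng2 took 25.6% and 26.1% of their UMIs from 1 cell.

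Peptidergic nociceptors, the pain neurons that make CGRP and substance P, were marked by the R-type pore Cacna1e. It reached 39 CPM (33.5 to 45.1) in them, 7.47 CPM in A-fibre neurons and 1.53 CPM or less in the other 5 subtypes, a ratio to all other neurons of 11 (8.63 to 14.2). Thinned to 20000 UMIs, 53.1% (38.3% to 67.5%) of 49 peptidergic cells held a Cacna1e UMI, against 1.02% (0.0258% to 5.55%) of 98 Mrgprd cells. Cacna2d1, the gabapentinoid target, was high in peptidergic nociceptors, 570 CPM (548.5 to 592), and in Trpm8 neurons, 531 CPM (503 to 559.8), and lay between 112 and 207 CPM in the rest. Cacng4 stood at 24.6 CPM (20.4 to 29.6), against 11.4 CPM in Trpm8 and 8.51 CPM in A-fibre neurons, and at or under 1.03 CPM in the others. Cacnb2, Ryr3, Cacng3 and Cacng8 were also called higher, the last from 11 UMIs and with a ratio that turned to 0.804 at clustering resolution 2. Peptidergic nociceptors were lower in Cacna1d at 11.1 CPM, in Itpr3 at 1.5 CPM and in Cacna1i, with no UMIs.

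Trpm8 cold-sensing neurons had the highest level of Cacnb2, a beta subunit. Their 97.5 CPM (85.8 to 110.4) compares with 55.5 CPM in peptidergic and 40.5 CPM in A-fibre neurons, and the other 4 subtypes were at 2.15 CPM or under. The split was as plain per cell. Thinned to 20000 UMIs, 75% of Trpm8, 49% of peptidergic and 30.6% of A-fibre neurons held a Cacnb2 UMI, against 5.13% of C-low-threshold, 3.85% of Mrgpra3, 2.04% of Mrgprd and none of 14 Nppb or Sst cells (exact upper bound 23.2%). Trpm8 neurons were also higher in Cacna1h at 62.7 CPM (53.3 to 73.2), Cacna1d at 45.8 CPM (37.9 to 54.9), Cacng5 at 38 CPM (30.8 to 46.4), Itpr1 at 45.4 CPM (37.6 to 54.5) and Cacng7 at 22.3 CPM (16.9 to 28.9). For Cacna1h, Cacna1d and Cacng5 these intervals overlap those of A-fibre neurons.

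C-low-threshold mechanoreceptors, unmyelinated neurons of gentle touch, held most of the Cacna1i signal. This T-type pore stood at 12.3 CPM (8.78 to 16.7), from 40 UMIs in 23 of 43 cells, and at 2.7 CPM or less in every other subtype, a ratio of 14 (8.41 to 23.8). Cacna1h was present in the same cells at 38.1 CPM (31.7 to 45.4), a ratio of 1.6 (1.31 to 1.94), under the threshold. Their Cacna1c was the lowest of any subtype at 63 CPM (54.7 to 72.2), below 86.3 CPM in A-fibre neurons and 205 to 331 CPM in the other 5. Itpr1 at 42.7 CPM (35.9 to 50.4) and Ryr1 at 3.07 CPM, the latter from 10 UMIs, completed the 3 genes called higher.

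Nppb or Sst pruriceptors, itch neurons, lacked most of the beta subunit Cacnb4. Its level was 9.16 CPM (4.73 to 16) from 12 UMIs, whereas the other 6 subtypes lay between 91.9 and 219.8 CPM, and the ratio to all other neurons was 0.0636 (0.0328 to 0.111). Their Cacna1c, 331 CPM (301 to 364), was the highest of the subtypes. Both genes called higher, Cacng3 and Cacng2, rested on 23 UMIs in 9 cells and 22 UMIs in 5 cells, and the ratio of Cacng3 turned to 0.821 at clustering resolution 0.5. Mrgpra3 pruriceptors were higher only in Cacng2, at 18 CPM (13.7 to 23.2). Mrgprd nociceptors, the largest subtype, had no gene called higher. They had Cacna1a, Cacna1b, Cacna1c, Cacnb3 and Cacnb4 at 204, 141, 205, 291 and 146 CPM. Cacna1d, Cacna1h, Cacna2d3 and Ryr2 were called lower there, at 10.7, 7.47, 18 and 3.64 CPM.

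Of the release channels, the IP3 receptors each had a different highest class. Itpr2 was found above all in the central oligodendrocyte lineage, at 483 CPM (463 to 504), with 74.6 CPM in endothelial cells, 60.4 CPM in astrocytes, 46.2 CPM or less in every other class and 1.97 CPM in neurons. Against the other non-neuronal cells the ratio was 25.5 (24 to 27.2). Itpr3 was highest in peripheral glia, at 165 CPM (158 to 171) in myelinating Schwann cells, 86 CPM (82.1 to 90.2) in non-myelinating or immature Schwann cells and 80.4 CPM (72.7 to 88.6) in satellite glia, and no other class passed 38.2 CPM. Itpr1 was highest in endothelial cells at 151 CPM (138 to 166), followed by mural cells at 109, cartilage or bone at 94.1, fibroblasts at 83.3 and astrocytes at 62.5 CPM. Schwann cells had 7.56 and 3.31 CPM of it, around the 6.19 CPM of erythroid cells. Among the peripheral glia, Ryr3 was a gene of satellite glia, at 29.3 CPM (24.7 to 34.4) against 0.737 and 0.765 CPM. Central astrocytes held both Ryr3 at 29.8 CPM (21.6 to 40.2) and Ryr2 at 38.2 CPM (28.8 to 49.7). Ryr1, the skeletal muscle receptor, stayed at 3.02 CPM or less in every named class.

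**Figure D4:**
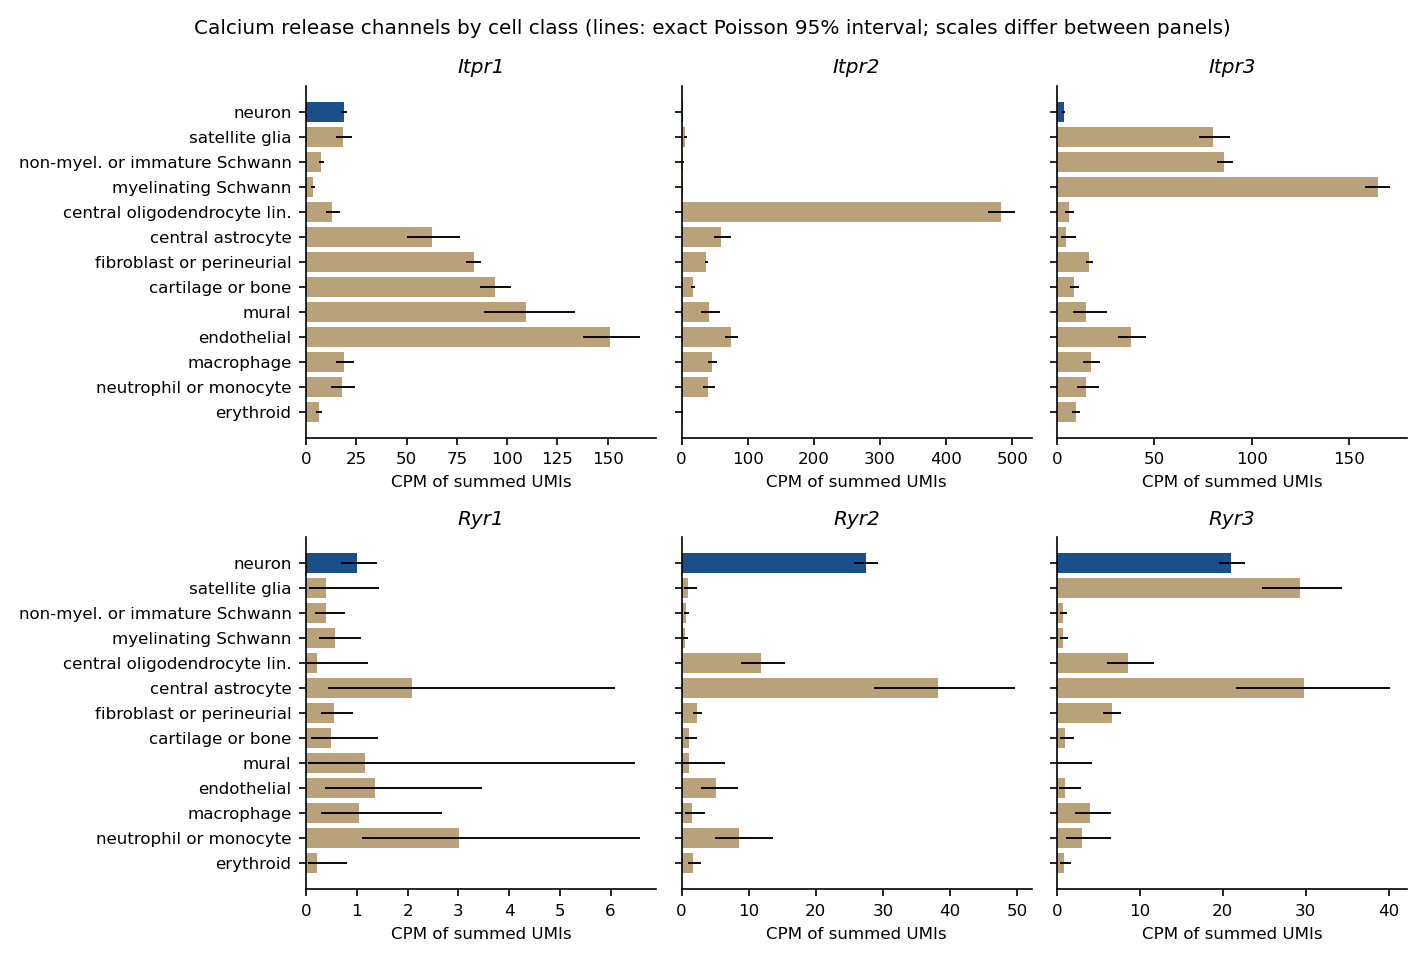
CPM of summed UMIs (bars, with exact Poisson 95% intervals) of the 6 calcium release channels in neurons (blue) and 12 other classes (tan), each panel on its own scale. Itpr1 is highest in endothelial cells (151 CPM), Itpr2 in the central oligodendrocyte lineage (483 CPM) and Itpr3 in myelinating Schwann cells (165 CPM), while Ryr2 and Ryr3 are highest in central astrocytes (38.2 and 29.8 CPM).

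Outside neurons, each class was compared with all other non-neuronal cells, over 27 members with 20 UMIs. Mural cells, the contractile cells of vessels, were higher in 8 (7.55% of all genes were) and lower in 4 (7.97%). The higher ones were Cacna1c at 217 CPM (187 to 251), Cacnb2 at 171 CPM (144 to 201) and Cacna2d1 at 176 CPM (149 to 206), which are a pore, a beta and an alpha2delta gene known from smooth muscle, and Cacna1d, Cacna1h, Cacnb3, Cacng7 and Itpr1. Their Cacna1c level overlapped that of neurons, 193 CPM (189 to 198). Fibroblasts or perineurial cells were higher in 8 (17.5% of all genes), among them Cacna1c at 125.5 CPM (121 to 130.1), the T-type pore Cacna1g at 48 CPM (45.3 to 50.9) and the muscle pore Cacna1s at 2.64 CPM (2.03 to 3.38), which had 63 of its 70 non-neuronal UMIs there. Skeletal muscle cells were not a named class. Endothelial cells were higher in Itpr1 and in Cacna1e, at 36.1 CPM (29.6 to 43.7) (2 genes; 11% of all genes were higher). Cartilage or bone cells were higher in 4 (6.2% of all genes), Cacna2d1 at 113 CPM (105 to 122), Itpr1, Cacna2d3 at 34.9 CPM (30.4 to 39.8) and Cacnb3.

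In the central oligodendrocyte lineage 11 members were higher (12.2% of all genes) and in astrocytes 9 (11.8%). Cacnb2, Cacnb4, Cacng4, Cacng7, Cacng8, Ryr2 and Cacna2d3 were among those called in both, as was Cacng1 from 7 and 4 UMIs. In astrocytes 30.8% of the Cacna2d3 UMIs came from 1 cell. In satellite glia 3 were higher (7.99% of all genes), Cacng4, Ryr3 and, from 8 UMIs, Cacng1, and 11 were lower (15% of all genes). Cacng4 stood at 148.5 CPM (129 to 169.8) in astrocytes and 131 CPM (121 to 142) in the oligodendrocyte lineage, and satellite glia had 149 CPM (139 to 160.5), so the 3 intervals overlap. Astrocytes held Cacnb2 at 129 CPM (111 to 149), and the oligodendrocyte lineage Cacna1a at 73 CPM (65.3 to 81.3) and Cacnb4 at 58.3 CPM (51.4 to 65.7). Beside these, 4 of the 13 neuron markers had their highest level outside neurons in the oligodendrocyte lineage: Elavl3 at 326.8 CPM (neurons 253.2), Rtn1 at 768.8 CPM (1158.9), Gap43 at 175.6 CPM (888.5) and Ina at 55.6 CPM (204.2). Tubb3 was at 52 and 69.2 CPM in its 2 clusters, where neurons had 2291 CPM. Their part in the result was not tested.

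Macrophages had 1 gene called higher (11.7% of all genes), Cacna1d at 56.4 CPM (49.1 to 64.5), the highest level of that L-type pore in any class. Cacna1f, an L-type pore of the retina and of immune cells, had 13 of its 23 UMIs in macrophages, 3.41 CPM (1.82 to 5.83), and 6 in neurons. Neutrophils or monocytes had 5 (8.87%): Cacnb2 at 27.2 CPM and Cacna1b, Ryr1, Ryr2 and Cacna2d3, each from 6 to 25 UMIs in only 4 or 5 of the 180 cells. The Cacna1b level there was 5.36% of the neuronal one, within the 2.46% to 13.9% that neuron markers showed in this class. Its source was not tested. Erythroid cells had no gene called higher (4.18%) and 21 lower (64.9%). Lower calls in the other classes ran from 1 of 27 in fibroblasts (15.8% of all genes) to 19 of 27 in myelinating Schwann cells (30.6%).

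Among Schwann cells most calls against the other non-neuronal cells were lower ones. Non-myelinating or immature Schwann cells had none called higher (6.28% of all genes) and 16 of 27 lower (25.3%), and myelinating Schwann cells had 2 (5.54%), Itpr3 and Cacna1a. Between the 2 Schwann classes 20 members had enough UMIs, of which 1 was higher in myelinating cells (5.76% of all genes) and 6 were lower (13% of all genes). The gene higher in myelinating cells was Cacna1a, at 58.1 CPM (54.4 to 62) against 17.1 CPM (15.3 to 19), a ratio of 3.4 (3.00 to 3.86). Itpr3, at 165 against 86 CPM, had a ratio of 1.91 (1.8 to 2.04), under the threshold. The 6 lower genes were Cacna1c with 3.34 (2.13 to 5.44)-fold, Cacna1h with 3.14 (2.3 to 4.36)-fold, Cacng4 with 4.74 (2.94 to 8.03)-fold, Cacnb2 with 5.97 (2.11 to 23.3)-fold, Itpr1 with 2.28 (1.66 to 3.19)-fold and Cacna1e with 2.07 (1.14 to 3.94)-fold lower levels. Cacna1d, at 21.9 and 15.3 CPM, and Cacna2d1, at 24.9 and 32.6 CPM, were called in neither direction.

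Within classes, single clusters held much of the signal. The Cacna1a of myelinating Schwann cells lay in cluster 2, with Ncmap and Pmp22 among its leading genes, at 103 CPM (95.3 to 110.3), while cluster 3, led by Pou3f1, had 20.8 CPM (17.8 to 24.1), near the 13.4 to 19.6 CPM of the non-myelinating or immature clusters. Itpr3 was graded in the same order, 214 CPM in cluster 2, 123 in cluster 3 and 67.9 to 96.5 in the others, the lowest of which was the dividing cluster 4. In the oligodendrocyte lineage, the Mog-rich cluster 19 held Itpr2 at 715 CPM (683 to 749) and Cacnb4 at 81.1 CPM (70.6 to 92.8), and the Pdgfra-rich cluster 23 held 169.9 and 27.4 CPM. Cacng4 was the reverse, 10.7 CPM in cluster 19 and 293 CPM (269.8 to 319) in cluster 23, and so was Cacna1a, 45.1 and 110.5 CPM.

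Among fibroblasts, Cacna1s was counted almost wholly in cluster 6, led by Apod and Dcn, at 8.78 CPM (6.69 to 11.3), with 0.594 CPM in cluster 10 and no UMI in the other 3. Cacna1e was at 93.3 CPM (86.2 to 101) in that same cluster, 43.4 CPM in cluster 26 and 3.79 to 5.2 CPM in the rest. Cacna1c was highest in cluster 5, led by Mfap4, at 230.4 CPM (219.7 to 241), as was Cacna1g at 70.5 CPM (64.7 to 76.7). Satellite glia were of 2 clusters, 351 cells led by Fabp7 and 46 cells led by Npy, S100a3 and Apcdd1. The small one held Cacna1e at 203.5 CPM (162 to 252) and Cacna1d at 120.2 CPM (88.9 to 159), and the large one 0.217 and 3.68 CPM, so the 16.7 CPM of Cacna1e over all satellite glia came from the small cluster. Cacng4 and Ryr3 were in the large one, at 161 and 31.4 CPM, against 17.2 and 4.9 CPM.

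**Figure D5:**
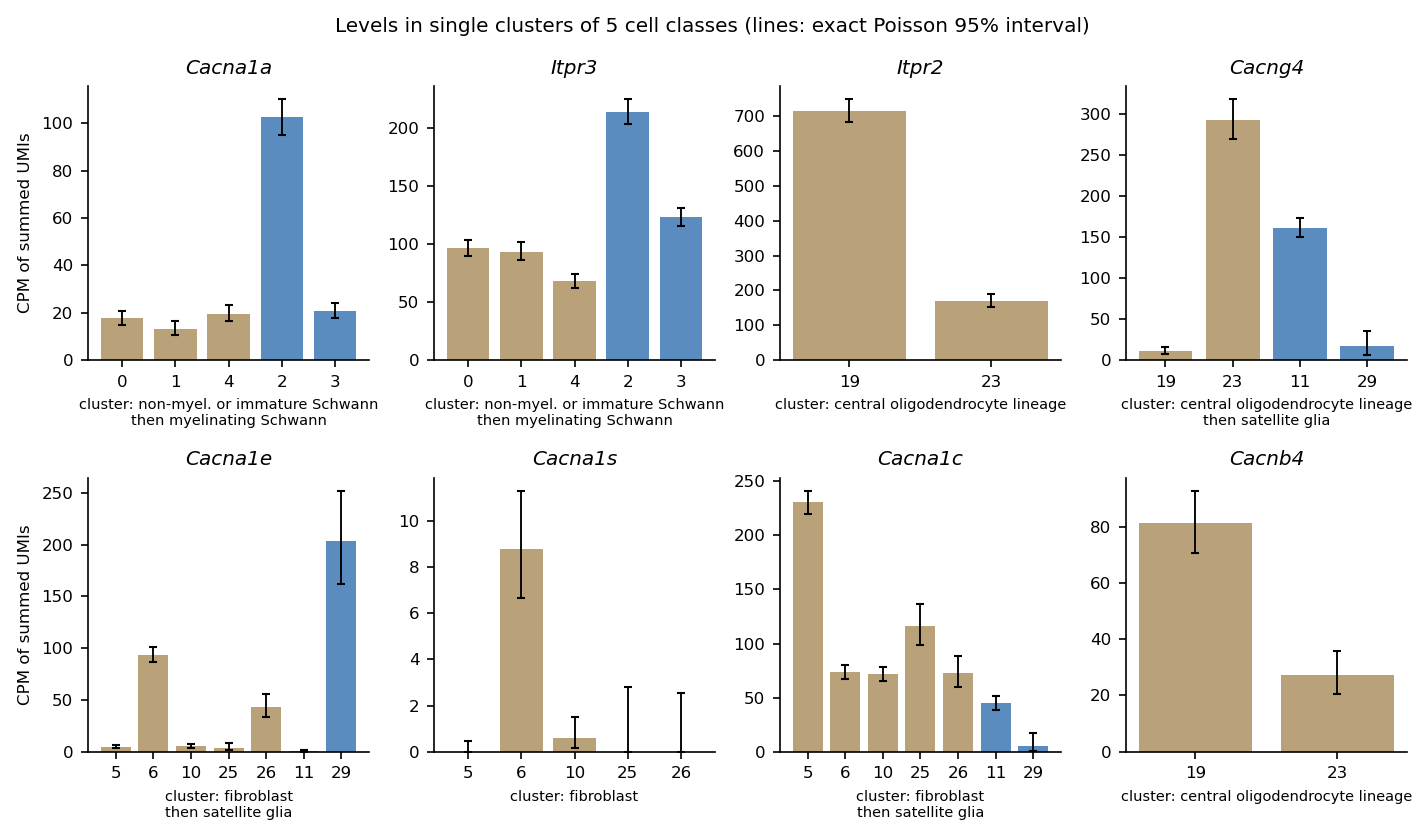
CPM of summed UMIs (bars, with exact Poisson 95% intervals) of 8 genes in single clusters of 5 classes, where tan and blue separate the first and second class named under a panel. Cacna1a and Itpr3 are highest in Schwann cluster 2, Itpr2 and Cacnb4 in oligodendrocyte lineage cluster 19, and Cacna1e in satellite glia cluster 29 at 203.5 CPM.

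The wider calcium pathway was read from 8 gene lists. Of the 82 genes, all with 20 UMIs, 39 were higher in neurons (20.9% of all genes) and 14 lower (34.2%). Calmodulin-dependent kinases and calcineurin had 10 of 12 higher and none lower, led by Camk2a with a ratio of 45.6 (39.7 to 52.7) and Camk4 with 21.9 (19.4 to 24.9). Channel regulators had 7 of 12 higher, with Stac, an adaptor of L-type channels, at 81.8 (70.1 to 96), Cabp1, a calmodulin relative, at 18 (16.1 to 20.3) and Stac2 at 16.8 (14.1 to 20), and 3 lower. Of the small GTPases that inhibit the channels, Rem2 was among the higher genes, with a ratio of 3.88 (3 to 5.04), and Rem1, Gem and Rrad were the lower ones, with ratios of 0.0369 (0.0119 to 0.0868), 0.116 (0.105 to 0.128) and 0.123 (0.0901 to 0.164). Calcium buffers and sensors had 6 of 12 higher, led by Necab1 at 17.4 (15.9 to 19.1), and 1 lower, S100a1. Calcium pumps had 4 of 9 higher, all plasma membrane pumps, with Atp2b3 at 33.2 (21.7 to 53.3) and Atp2b2 at 31.3 (27.9 to 35.3).

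For each list below, the shares over all genes are again 20.9% higher and 34.2% lower. Release partners had 4 of 12 higher and 4 lower, the lower count being near the share over all genes. Jph4 and Jph3, junctophilins that tether the reticulum to the plasma membrane of neurons, had ratios of 52.3 (46.4 to 59.1) and 36.8 (31.5 to 43.3), and Fkbp1b, which binds ryanodine receptors, 36.2 (34.3 to 38.2). The lower ones included Casq1 and Casq2, the calsequestrins of muscle, and Hrc, with ratios of 0.161 (0.082 to 0.288), 0.0956 (0.0306 to 0.228) and 0.00826 (0.000209 to 0.0464), the last from 1 neuronal UMI. Mitochondrial uptake and endolysosomal channels had 4 of 11 higher, among them Mcub at 8.43 (7.55 to 9.42) and Micu3 at 8.18 (7.84 to 8.53), and 2 lower. Sodium-calcium exchangers had 3 of 9 higher, led by Slc24a2 at 14.4 (13.2 to 15.7), and 2 lower. Of the 5 genes of store-operated entry, which refills the reticulum after release, Orai2 was higher at 3.37 (3.04 to 3.74) and Stim2 lower at 0.318 (0.293 to 0.344), with the other 3 between 0.94 and 1.21.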

How the data were processed

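The single-cell library was made on the 10x platform, and the authors deposited a gene-by-barcode matrix of UMI counts, whole numbers with no normalization. Per the file headers the matrix came from cellranger 7.0.1, whereas Cell Ranger 3.1.0, with mm10, stands in the submitters' processing notes. No source used here states how intronic or antisense reads were treated. The matrix held 149040354 UMIs in 13065 barcodes.

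Cells were clustered with scanpy 1.11.5 and leidenalg 0.10.2 (2000 variable genes, 30 components, 20 neighbours, resolution 1, 31 clusters), and 1313 kept cells stayed unnamed. To take a name, a cluster needed at least 3 of its class's markers raised at least 2-fold and at 10 CPM or more. It also needed a mean log2 ratio of the list above 0.5, enough depth and no other list as high, among further limits. Scrublet called only 2 barcodes (0.0212%), and no doublet was removed. Whether more doublets were present was not tested. UMIs were summed per class, with CPM, intervals and calls as described above. The calling step was tested on simulated counts. Shares of cells were taken after thinning to 5000 or 20000 UMIs.

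The members, marker lists and pathway lists were chosen with earlier results of these data known, and the naming rule was settled after the clusters had been seen. Members were named where called or with 20 UMIs, and up to 3 genes at each end of a pathway list. Alternatives were UMIs per cell, other minimums, resolutions, filters and reference groups. The 6 molar libraries were not analysed here.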

Additional observations from a re-analysis of the deposited data

Results flagged for a closer look

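A cluster that took no name and entered no comparison held 3 of the genes above their level in every named class and subtype. It had 170 cells with a median of 10082.5 UMIs and was led by Dcc, Igfbpl1, Gh, Zic1 and Pax6. Cacna2d1 stood at 970 CPM (928 to 1014) there, where the highest named group, peptidergic nociceptors, had 570 CPM. Cacna1e stood at 129 CPM (114 to 145), against 39 CPM in the same nociceptors. Single clusters of the named classes were not part of this comparison, and the small cluster of satellite glia described above held more Cacna1e. Cacng2 stood at 54.5 CPM (44.8 to 65.5), against 18.3 CPM in A-fibre neurons. The type of these cells was not determined.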

How the results depend on the processing

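Over 1023 gene-level values recomputed under the alternatives, 872 stayed within their counting interval, 142 moved and 9 turned direction. The 872 include 104 values under the minimum of 50 UMIs, which could not move, because that setting changes calls and not ratios. For classes and subtypes, only the value in each gene's highest group was recomputed. Counted as UMIs per cell instead of CPM, the number of members lower in neurons was 3, not 7, the number higher in myelinating Schwann cells was 3, not 1, and the neuron ratio became 2.77 for Itpr1, 1.94 for Cacng4, 1.90 for Cacng1 and 1.63 for Cacna1s. By construction these values move with UMIs per cell, 5.79-fold more in neurons than in other cells and 1.12-fold more in myelinating than in other Schwann cells. The shares of all genes called on that scale were not computed. Against glia only, 2 members were lower in neurons, with ratios turned to 2.56 for Itpr1, 4.22 for Cacna1s and 1.29 for Cacna1g, as the reference then holds fewer classes. At clustering resolution 2, 20 subtype pairs were higher, not 31, and 2 genes were higher in myelinating Schwann cells, and the ratio of Cacng8 in peptidergic nociceptors was 0.804. At resolution 0.5 that of Cacng3 in Nppb or Sst pruriceptors was 0.821. The cause of the changes with resolution was not tested. The number of members higher in neurons lay between 16 and 24 over the alternatives tried. With neurons of named subtypes only, or without the dividing Schwann cluster, alternatives chosen after seeing the data, 17 members were higher in neurons and 1 in myelinating Schwann cells. No paired analysis was possible because the ganglion is 1 library and the molar libraries that share replicate numbers were not analysed here. Depth limits Cacna1f, Cacna1i, Cacna1s, Cacna2d4, Cacng1, Cacng6 and Ryr1, each with under 100 UMIs over all named cells.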

Other observations

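Ryr1, the skeletal muscle ryanodine receptor, stood in an unnamed cluster of 82 cells with Cd74 and H2-Aa among its leading genes, which are genes of antigen presentation, at 16.4 CPM (9.2 to 27.1), where no named class passed 3.02 CPM.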
